A study of Arabidopsis thaliana with 22 samples.

Results

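Leaf transcriptomes of the photorespiratory mutant shm1 and of wild-type Arabidopsis thaliana were compared after 8 h of light in air with 0.038% CO2 (low CO2, LC). The comparison rests on 5 of the 22 libraries of the series, 2 of shm1 and 3 of the wild type, chosen by genotype and CO2 condition in the sample titles. Plants of every group grew in air enriched to 1% CO2 (high CO2, HC) with a 10-h day and a 14-h night. The CO2 level was lowered at the end of a night when the plants had reached growth stage 5.1, and mature leaves were frozen 8 h into the following light period. The mutant is the T-DNA insertion line shm1-2, a single line, so the insertion and anything else that the line carries cannot be told apart. The wild type carries no insertion according to the labels. For the same genotypes left in 1% CO2, 3 wild-type and 2 shm1 libraries of leaves taken at the same hour were used. For other photorespiratory mutants, the insertion lines glyk1-1 and pglp1-1 after the same shift were used, with 2 libraries each. The submitters call the replicates biological, and how many plants went into each is not stated. The p-values below cover only the spread among libraries, which may be technical in part.

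SHM1 encodes the main mitochondrial serine hydroxymethyltransferase of leaves. Photorespiration begins when Rubisco fixes oxygen in place of CO2, and it returns the resulting phosphoglycolate to the Calvin-Benson cycle through chloroplasts, peroxisomes and mitochondria. In the mitochondrion, the glycine decarboxylase complex splits glycine into CO2, ammonia and a carbon unit bound to tetrahydrofolate, and serine hydroxymethyltransferase joins that unit to a further glycine to form serine. Enriched CO2 suppresses the oxygenation, which is why such mutants are raised in it, and plants without this step are known to suffer in normal air.

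Total counts were 11984595 to 24585963 in the wild-type LC libraries and 194460991 and 65282092 in the shm1 LC libraries, against 5911382 to 194460991 over the series. Values below are counts scaled to a common normalised library size (CPM), given for wild-type replicates 1 to 3 and then for shm1 replicates 1 and 2. For 4920 of 25680 loci (19.2%), the counts of wild-type replicate 3 stand on displaced rows of the deposited table and were treated as missing. A locus with only 2 wild-type values below is one of them. In short windows of neighbouring rows, the median correlation of that library with the others was -0.105 in the displaced rows as deposited and 0.956 after the best shift, against 0.969 elsewhere. Outside those rows, the same library is at 0 for 52 loci at which both other wild-type LC libraries hold at least 100 counts, and it holds at least 100 counts at 64 loci where they hold at most 2. Results on named loci that are at 0 in it in this way are given without it too. Rank correlations across loci were 0.886 to 0.932 among the wild-type libraries, 0.978 between the shm1 libraries and 0.622 to 0.766 between genotypes. Wild-type replicate 1 was the nearest to shm1, and its ER chaperone, anthocyanin and defence transcripts were high and its plastid transcripts low within its group.

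SHM1 itself (AT4G37930, chromosome 4, 17831731 to 17835017, minus strand, TAIR10) was at 942, 2219.8 and 1732 CPM in wild-type LC leaves and at 55 and 25.7 CPM in shm1. The groups are far apart in LC. In HC, wild type held 1913, 2283 and 1447 CPM and shm1 85.5 and 109 CPM, and the groups are again separate, as the labels require. On the log2 scale edgeR estimated -5.34 for shm1 against wild type in LC (SE 0.46, adjusted p = 2.37e-07) and -4.27 in HC (SE 0.44, adjusted p = 0.000905). Of 1940 windows of 50 bases in SHM1, 0 occur in the sister gene SHM2.

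In low CO2 the genotypes differed over most of the transcriptome, and in high CO2 hardly at all. Of 20372 loci tested, 13441 (66%) passed an adjusted p of 0.05 in LC, with 6691 higher in shm1 (32.8%) and 6750 lower (33.1%). The median log2 fold change over all loci was -0.03, and beyond a 2-fold change 3894 loci were higher (19.1%) and 4337 lower (21.3%) by edgeR's test against that threshold. The CPM of the 2 groups did not overlap at 15133 loci (74.3%), with shm1 above at 38.7% and below at 35.6% of loci tested. In HC, 4 loci passed (0.0196%; 0.00491% higher and 0.0147% lower), 1931 had an unadjusted p under 0.05, and DESeq2 called 158. The difference between the LC and HC contrasts, tested as an interaction, passed for 10877 loci (53.4%), 5511 with the more positive contrast in LC (27.1%) and 5366 with the more negative (26.3%). Among loci higher in LC, 78.4% also passed that interaction test in the same direction and the median log2 fold change in HC was -0.04. For loci lower in LC, the corresponding values were 77.5% and -0.03. With each of the 5 LC libraries left out in turn, 5257 of the higher and 4921 of the lower loci stayed called in the same direction every time.

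The 4 loci that passed in HC are few enough to name. SHM1, the RNA-binding KH domain gene AT1G51580 and the F-box gene AT5G44490 were lower in shm1, and NAP12 was higher. NAP12 (AT2G37010, chromosome 2, 15541389 to 15546285, plus strand), an ABC transporter family protein, had 0 counts in all wild-type libraries of both CO2 levels, 26.4 and 40.4 CPM in shm1 in HC and 38.5 and 39.3 CPM in LC. In LC it was at least 807-fold higher against a floor of 3 counts over the wild-type group. AT1G51580 was at 9.61, 10.4 and 10.6 CPM in wild-type LC leaves and 2.32 and 1.74 CPM in shm1 (log2 fold change -2.32, SE 0.2), after -1.22 in HC. AT5G44490 did not pass in LC, where wild type held 2.63, 2.57 and 2.06 CPM and shm1 1.87 and 2.26 CPM.

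The counts in the following paragraphs are for gene lists chosen with earlier results of these data known, and the shares to read them against are the 32.8% higher and 33.1% lower of all loci. Levels depend on the scaling. The median of all loci moved by -0.43 under upper-quartile factors and by -0.42 under total counts. It moved by -1.59 when libraries were scaled to a list of reference genes. Of these, UBQ10 and GAPC1 were higher in shm1 under the main scaling (log2 fold changes 2.17 and 2.70). Under the reference-gene scaling itself, UBQ10 was at 0.58 and did not pass. The counts of loci higher and lower became 5164 and 8566, 4887 and 8363, and 2167 and 13608 under these 3 scalings. UBQ10 supplied 60.3% and 60.4% of the reference counts in shm1, against 37.8%, 33.2% and 50% in the wild-type replicates. A scaling moves all loci of a library alike, so list medians taken relative to the median of all loci hardly change and cannot test the scaling. That of the mitochondrial retrograde list, for one, lay between 4.22 and 4.28. In absolute terms the reference-gene scaling turned the medians of some lists from positive to negative, as given with each.

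**Figure D1:**
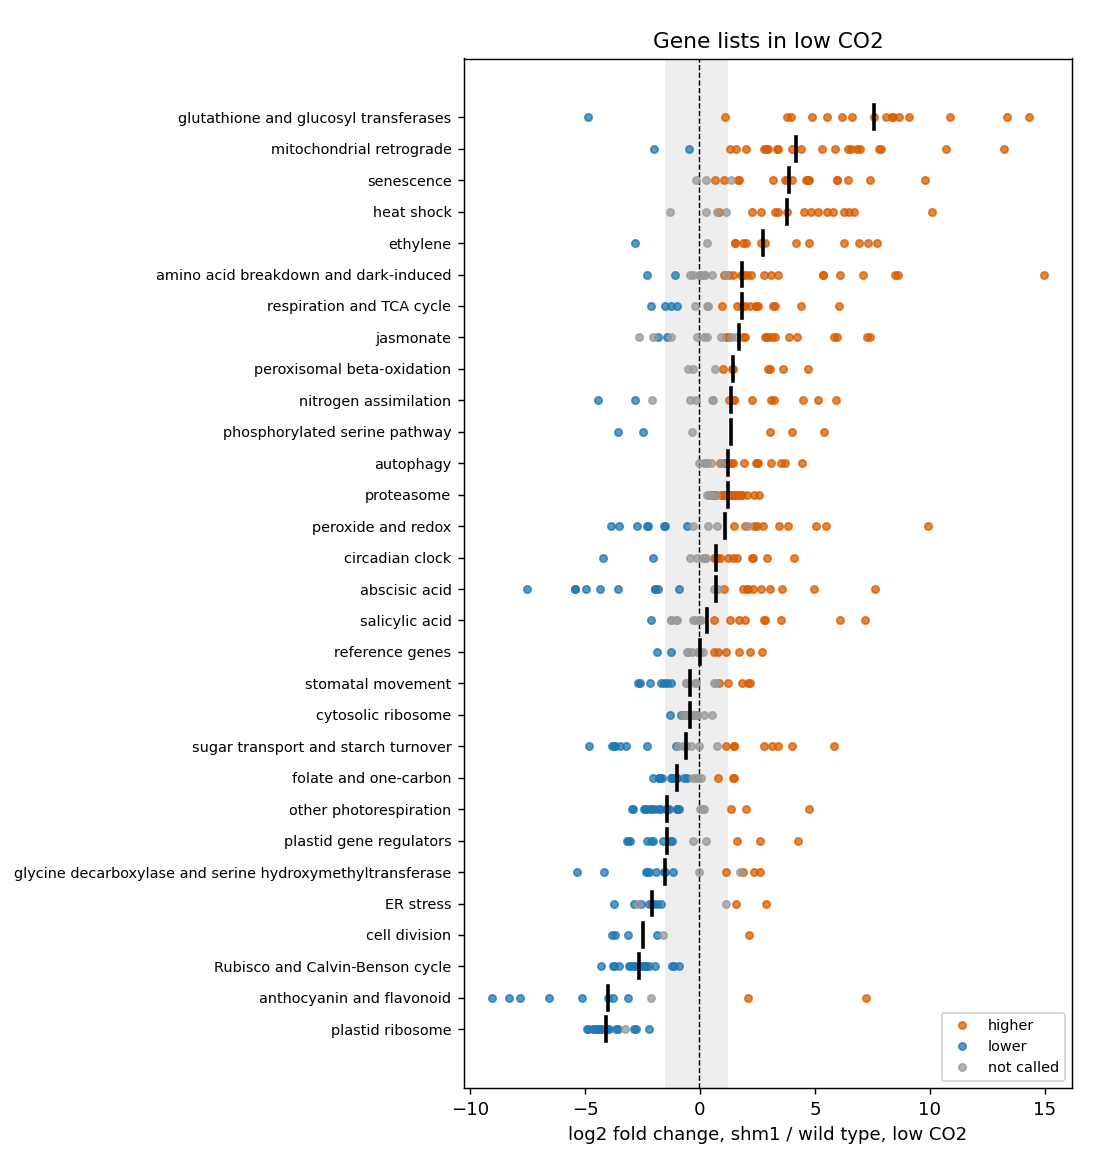
Log2 fold change of shm1 against wild type in low CO2 for every tested member of each gene list (points; orange higher, blue lower, grey not passing an adjusted p of 0.05), with the list median as a black bar. The dashed line and grey band mark the median of all 20372 loci (-0.03) and their interquartile range (-1.46 to 1.19). The plastid ribosome list lies below the band and most listed glutathione and glucosyl transferases lie far above it.

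Genes of the glycine-to-serine step were mostly lower in shm1, with 9 of 15 members lower, 4 higher and a median log2 fold change of -1.51. The 9 include SHM1 itself, whose low level follows from the genotype compared. GLDT, the aminomethyltransferase subunit, was at 297, 702 and 1313 CPM in wild type and 68.5 and 15.9 CPM in shm1. All wild-type libraries were above both shm1 libraries, and edgeR gave -4.19 on the log2 scale (SE 0.66, adjusted p = 5.21e-05). The carrier subunits GLDH1, GLDH2 and GLDH3 were lower by log2 values of -1.91, -2.23 and -2.28, and the lipoamide dehydrogenase mLPD1 by -1.55. Isoforms of 2 subunits differed in direction. The decarboxylating subunit GLDP1 fell from 1719, 1133 and 1900.2 CPM to 726 and 694 CPM (-1.16, SE 0.36), while GLDP2 was at 241, 167 and 202 CPM in wild type and 409.7 and 473 CPM in shm1 (1.12, SE 0.28). Per length, the authors' RPKM of GLDP1 was 522 ± 117 (SD, n = 3) against 178 (n = 2), and that of GLDP2 67.3 ± 16.3 against 109 ± 1.85, so GLDP1 stayed the more abundant transcript in shm1. Only 5 of 3537 windows of 50 bases in GLDP1 occur in GLDP2. The direction of GLDP2 depends on the scaling, since its log2 fold change was -0.47 with reference genes. mLPD2 was at 82.1 and 51.1 CPM in wild type and 290.2 and 391 CPM in shm1 (2.35, SE 0.3), and it stayed positive at 0.76 with reference-gene scaling.

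No other serine hydroxymethyltransferase transcript reached the level lost with SHM1. SHM2, the other mitochondrial form, was itself lower, at 60.8, 42.7 and 26.5 CPM in wild type and 12.3 and 4.73 CPM in shm1 (-2.34, SE 0.41, adjusted p = 0.00013). In HC it did not pass (53.8, 50.6 and 32.8 against 46 and 52.7 CPM; 0.11), and the interaction passed (-2.45, adjusted p = 0.00139). Cytosolic SHM4 was lower at 44.7 and 31.4 CPM against 125, 100.5 and 100.2 CPM (-1.51, SE 0.28). Plastid SHM3 showed 69.7, 50.8 and 32.1 CPM in wild type and 50.1 and 47.5 CPM in shm1, with overlapping groups. SHM6 and SHM7, less studied members of the family, were higher. SHM6 was at 18.6, 15.6 and 19.5 CPM in wild type and 92.4 and 125 CPM in shm1 (2.60, SE 0.2), and SHM7 at 56.6, 25.7 and 35.6 against 154 and 136 CPM (1.88, SE 0.35; 0.33 and not passing with reference-gene scaling). SHM7 was nonetheless lower in shm1 than in glyk1 and pglp1, whose means were 498 and 710 CPM. On the per-length RPKM scale, SHM1 stood at 984 ± 395 in wild type, while SHM6 and SHM7 reached 39.5 ± 5.09 and 61.7 ± 10.6 in shm1.

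The remaining photorespiratory genes were mostly lower, with 16 of 22 members lower, 3 higher and a median of -1.44. Among peroxisomal steps, the glutamate:glyoxylate aminotransferase GGT2 was lower by a log2 value of -2.36, the glycolate oxidase GOX2 at 392 and 546 against 142 and 104 CPM (-1.93), and the malate dehydrogenase PMDH2 at 469.8, 764 and 893 against 230.2 and 303 CPM (-1.41). The groups of GOX2 and PMDH2 were separate. Chloroplast members were lower too, including GS2, the glutamine synthetase that refixes photorespiratory ammonia (593, 1156 and 1284 against 226 and 144 CPM; -2.45, SE 0.35) and the dicarboxylate translocator DIT2.1 (-1.77). The cytosolic hydroxypyruvate reductase HPR2 (-2.18) and its relative HPR3 (-2.89) were lower as well. The calls on PGLP1 (-1.74) and GLYK (-1.01) rest on single libraries. PGLP1 no longer passed without wild-type replicate 2 (-0.72) or shm1 replicate 2 (-1.60), and GLYK no longer passed without shm1 replicate 1 (-0.86). PGLP1 and AT5G36790 share 92.9% of their 50-base windows, so the split of reads between them is uncertain.

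The 3 photorespiratory genes that were higher act in the peroxisome. CAT2, the main leaf catalase of photorespiratory peroxide, was at 232, 309.7 and 105 CPM in wild type and 704 and 1043 CPM in shm1 (2.02, SE 0.37, adjusted p = 0.000188; 0.37 and not passing with reference-gene scaling). GOX3, a glycolate oxidase homologue, was at 2.37, 0.208 and 0.172 CPM and rose to 26.7 and 27.9 CPM (4.76, SE 0.81), or 7.15 without wild-type replicate 1. GGT1 was at 726, 931 and 1102 CPM in wild type and 1814 and 2861 CPM in shm1 (1.35, SE 0.29), but at -0.29 with reference-gene scaling. GGT1 and GGT2, which encode the same activity, differed in direction under the main scaling. 

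Transcripts of folate-bound carbon metabolism, which carries the unit released from glycine, were lower for 12 of 19 members and higher for 3, with a median of -0.98 (-0.65 without shm1 replicate 2; 1 higher without shm1 replicate 1). The 10-formyltetrahydrofolate deformylases 10FDF1 and 10FDF2, which are needed to keep folates available to glycine decarboxylation, were lower by -1.63 (SE 0.24) and -1.26 (SE 0.22). The methylenetetrahydrofolate reductases MTHFR1 (185 and 178 against 69.2 and 39.3 CPM; -1.74) and MTHFR2 (87.1, 72.2 and 71.3 against 28.3 and 16.1 CPM; -1.79) and the bifunctional dehydrogenase FOLD2 (-1.78) were lower. The wild-type values of these genes varied little. S-adenosylmethionine synthetase SAM1 went up from 237, 125 and 288 CPM to 553 and 655 CPM (1.48, SE 0.28), a value of -0.10 with reference-gene scaling.

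Serine can also be made from 3-phosphoglycerate in the plastid by the phosphorylated pathway, and 3 of its 6 tested genes were higher and 2 lower (median 1.35, or -0.21 with reference-gene scaling). PSAT1, the phosphoserine aminotransferase, was at 48.8, 23.5 and 28.9 CPM in wild type and 1627 and 1179 CPM in shm1. The groups are more than an order of magnitude apart, and edgeR put the log2 difference at 5.38 (SE 0.42, adjusted p = 1.04e-07). In HC the same gene was at 75.9, 93.9 and 66.9 CPM in wild type and 49.6 and 36.2 CPM in shm1, and the interaction was 6.26 (adjusted p = 2.8e-06). PGDH1, a phosphoglycerate dehydrogenase, was at 85.7, 38 and 33.3 against 970.2 and 695 CPM (3.99, SE 0.47), and PGDH2 at 346, 37.3 and 92.8 against 1239 and 1362 CPM (3.03, SE 0.7). Their isoforms PGDH3 (16.6 and 37.7 against 6.57 and 3.08 CPM; -2.48) and PSAT2 (4.19, 6.8 and 5.16 against 0.634 and 0.224 CPM; -3.56) were lower. The phosphatase PSP1 did not pass (14, 17.7 and 11.4 against 11.8 and 10.9 CPM). PSAT1 was also higher in shm1 than in glyk1 (2.55, adjusted p = 0.000423) and pglp1 (3.38, adjusted p = 1.88e-05).

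**Figure D2:**
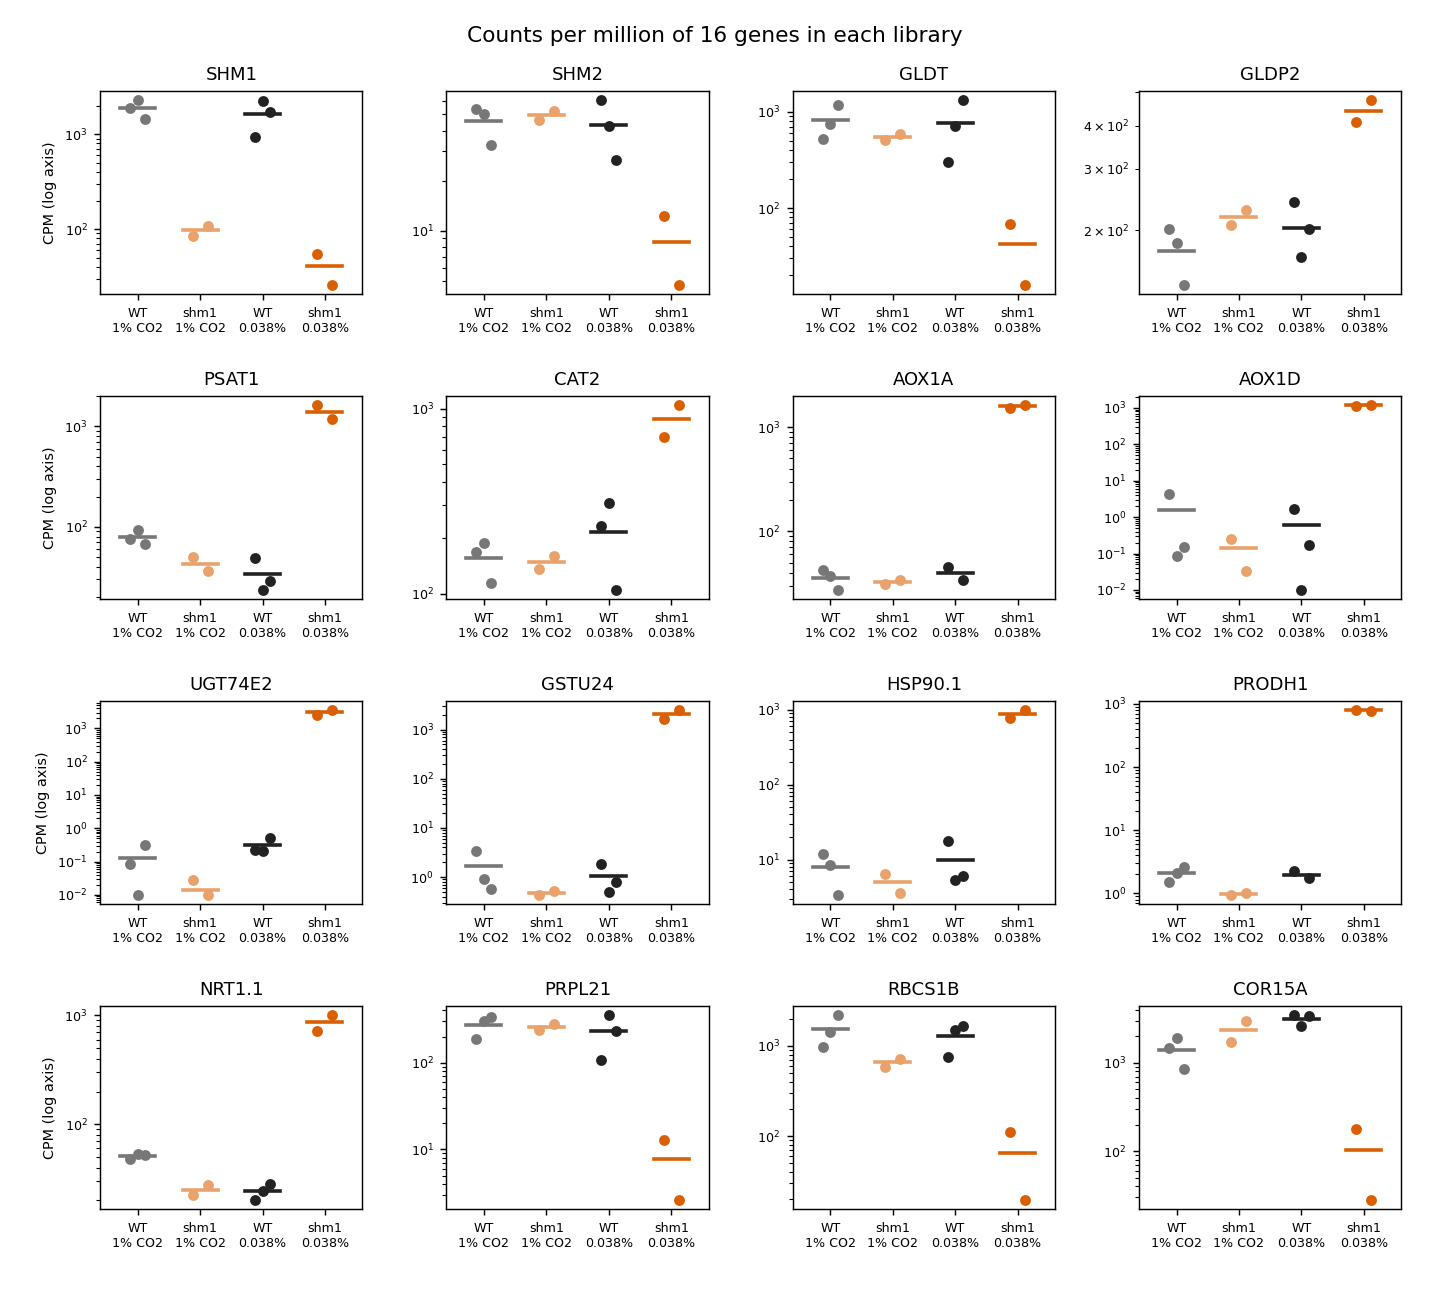
CPM of 16 genes in each library (points; log axis, values under 0.01 drawn at 0.01), for wild type and shm1 in 1% and 0.038% CO2, with the group mean as a bar; wild-type replicate 3 in low CO2 is left out where its row is displaced. SHM1 is low in shm1 at both CO2 levels, whereas PSAT1, AOX1D and UGT74E2 are high in the 2 shm1 libraries of low CO2 and low in the other 8 libraries drawn.

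Mitochondrial stress transcripts were higher almost throughout the list. Of 22 tested members of the mitochondrial retrograde list, 20 were higher and 2 lower, with a median of 4.20, or 3.69 with loci at 0 counts in wild type set to their lower bound, and 2.66 with reference-gene scaling. In HC 0 passed, where only 0.0196% of all loci did, and 19 passed the interaction test upward, as did 27.1% of all loci. Known targets of ANAC013 and ANAC017 are among these genes. Both are NAC transcription factors held at the endoplasmic reticulum and released when mitochondrial electron transport fails, and their part here was not tested. ANAC017 was at 76.2, 42.7 and 67.4 CPM in wild type and 145 and 168 CPM in shm1 (1.33, SE 0.23; -0.25 with reference-gene scaling), and ANAC013, itself a target, at 22.7, 9.23 and 18.8 against 266 and 277 CPM (4.00, SE 0.45).

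Among the alternative oxidases, which pass electrons from ubiquinol to oxygen without pumping protons, AOX1D showed the widest gap. AOX1D was at 1.66, 0 and 0.172 CPM in wild type and 1147 and 1193 CPM in shm1 (10.69, SE 1.81, adjusted p = 0.000108). In HC it was at 4.44, 0.0853 and 0.153 CPM in wild type and 0.244 and 0.034 CPM in shm1, and the interaction passed (adjusted p = 0.000473). AOX1B had 0 counts in both usable wild-type libraries and 0.806 and 0.299 CPM in shm1, at least 10.4-fold higher, a call lost with the rows as deposited (-1.94) or with DESeq2. AOX1C was lower at 0.133 and 0.0934 against 0.682 and 0.208 CPM (-1.99), a call lost without wild-type replicate 1 (-0.82), shm1 replicate 1 (-2.30) or shm1 replicate 2 (-1.80). By authors' RPKM, shm1 held 926 ± 44.5 of AOX1A, 761 ± 43.6 of AOX1D and 0.507 ± 0.362 of AOX1B (SD, n = 2). The alternative NAD(P)H dehydrogenases that feed them were higher, with NDA1 at 8.54, 22.3 and 20.7 CPM in wild type and 146 and 203 CPM in shm1 (3.35, SE 0.37) and NDB2 at 38.8, 7.77 and 11 against 387 and 427 CPM (4.40, SE 0.76). NDC1, which is found in plastids as well as mitochondria, was lower (27.6, 34.8 and 38.3 against 22.8 and 24.8 CPM; -0.49), but did not pass without wild-type replicate 3 (-0.34) or shm1 replicate 1 (-0.43).

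Further members of the list act in conjugation, transport and protein folding. UGT74E2, a glucosyltransferase of indole-3-butyric acid, was at 0.227, 0.208 and 0.516 CPM in wild type and 2496 and 3562 CPM in shm1 (13.24, SE 1.19, adjusted p = 3.68e-07). In glyk1 and pglp1 it averaged 961 and 5583 CPM, and neither differed from shm1 past the threshold. AT2G21640, which encodes a mitochondrial protein of oxidative stress, was at 2.4, 5.2 and 4.59 against 307 and 379 CPM (6.42, SE 0.54). The small heat shock protein gene AT5G51440 was at 0.844, 1.73 and 3.33 against 219.8 and 223 CPM (6.84, SE 0.96), the sulfotransferase SOT12 at 6.2, 11 and 30.6 against 1052 and 809 CPM (5.87), and the cytochrome P450 gene CYP81D8 at 9.16, 3.68 and 17.8 against 1299 and 1293 CPM (6.98). In all of these the highest wild-type library lay far below the lower shm1 library. The dicarboxylate carrier DIC2 was higher than in wild type (2.78) but lower than in glyk1 (-4.14) and pglp1 (-3.09).

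The mitochondrial dysfunction motif, CTTGNNNNNCANG, is the element that ANAC013 and ANAC017 are known to bind, and it was searched in the 1000 bases before each annotated gene start on both strands. It occurred before 8 of 24 listed genes (33.3%) and before 7.6% of 27443 protein-coding genes, and its share was 7.44% among loci called higher, 6.92% among those called lower and 8.93% among those higher by more than 4-fold. The stretches below, from RefSeq's TAIR10.1 assembly and written 5′ to 3′ on the gene's strand with the match in capitals, come from 5 of those 8 genes, so that the matched bases can be compared.
AOX1B, chr3:7903959-7904011, plus strand: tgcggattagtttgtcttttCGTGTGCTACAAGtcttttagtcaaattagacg
NDA1, chr1:2204014-2204066, plus strand: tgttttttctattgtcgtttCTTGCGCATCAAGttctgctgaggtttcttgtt
NDB2, chr4:2572328-2572380, plus strand: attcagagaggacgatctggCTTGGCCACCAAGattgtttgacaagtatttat
AT2G21640, chr2:9254307-9254359, plus strand: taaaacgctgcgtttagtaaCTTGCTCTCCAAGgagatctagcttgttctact
AT5G51440, chr5:20891033-20891085, plus strand: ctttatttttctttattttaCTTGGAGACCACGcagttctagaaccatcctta
In AOX1B the match is on the opposite strand, and in NDA1, NDB2 and AT2G21640 the letters read as a match on both strands.

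Respiratory genes outside the alternative pathway were higher for 12 of 19 members and lower for 4 (median 1.84, or 0.23 with reference-gene scaling). The aconitase ACO3 was at 449, 217 and 190.5 CPM in wild type and 1435 and 1811 CPM in shm1 (2.51, SE 0.34), fumarase FUM1 at 53.9, 51.3 and 22.9 against 173 and 219.8 CPM (2.20; 0.59 and not passing with reference-gene scaling), and cytochrome c CYTC-2 at 18.6, 7.77 and 6.54 against 89.3 and 115 CPM (3.20). Genes of the GABA branch were higher at GAD1 (4.41), GAD4 (6.04) and GABA-T (2.45; 0.88 and not passing with reference-gene scaling) and lower at SSADH (-1.25). The mitochondrial malate dehydrogenases mMDH1 (175, 239 and 147 against 65.8 and 63.6 CPM; -1.53) and mMDH2 (-2.14) were lower. The complex I subunit CI51 did not pass (206, 167 and 201 against 155 and 171 CPM).

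Redox genes moved both ways. In a list of 22, 10 were higher and 8 lower (median 1.11, or -0.47 with reference-gene scaling). Members that were higher included glutathione reductase GR1 (71 and 33.1 against 613 and 885 CPM; 3.84, SE 0.42), the glutathione synthesis enzyme GSH1 (137, 174 and 92.7 against 918 and 879 CPM; 2.74, SE 0.28), catalase CAT1 (2.36) and the zinc finger regulators ZAT10 (5.05) and ZAT12 (5.47). Members that were lower included the chloroplast peroxiredoxins 2CPA (223 and 649 against 42.6 and 17.8 CPM; -3.85), 2CPB (-2.24) and PRXQ (-3.53), thylakoid ascorbate peroxidase TAPX (-1.53) and iron superoxide dismutase FSD1 (-2.30). The stromal ascorbate peroxidase SAPX was higher, at 97.7, 97.6 and 30.9 against 195 and 223 CPM (1.47; -0.14 with reference-gene scaling).

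A list of chosen conjugating enzymes showed the largest list median. Of 17 glutathione S-transferases and UDP-glucosyltransferases, 16 were higher and 1 was lower, with a median of 7.57, against 6.01 with reference-gene scaling. GSTU24 was at 1.85, 0.486 and 0.803 CPM in wild type and 1623 and 2504 CPM in shm1 (10.86, SE 1.15), GSTU25 at 0.0974, 0 and 0.0573 against 1054 and 1599 CPM (14.31, SE 1.28), and UGT73B5 at 9.48, 3.05 and 10.8 against 1897 and 3232 CPM (8.35, SE 0.9). The most abundant was GSTF7, at 131, 49.8 and 90.4 against 5439 and 7718 CPM (6.18). GSTF8 is one of the loci at 0 in wild-type replicate 3 (75, 108 and 0 against 1235 and 2372 CPM), and its log2 fold change was 4.89 with that library and 4.35 without it. GSTU20 alone was lower, from 206, 232 and 131 to 11.1 and 1.74 CPM (-4.88, SE 0.81). Against glyk1, 8 of the 17 were higher in shm1 and 0 lower, where 19% of all loci were higher and 18.8% lower. Against pglp1, 6 were higher and 2 lower, where 29.8% and 23.8% of all loci were. Grouped by annotation words, 24 of 40 glutathione S-transferases were higher than in wild type and 8 lower (median 2.0, or 0.46 with reference-gene scaling). Of 95 UDP-glycosyltransferases, 42 were higher (44.2%) and 32 lower (33.7%; median 0.53, or -1.08).

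Most listed heat shock genes were higher in plants grown at 20 °C by day. In the heat shock list, 15 of 19 were higher and 0 lower, with a median of 3.78 and of 2.19 with reference-gene scaling. HSP90.1 was at 17.8, 5.27 and 6.08 CPM in wild type and 768 and 993 CPM in shm1 (6.49, SE 0.78), HSP70-4 at 30.1 and 3.05 against 728 and 1100 CPM (5.77, SE 1.03), and HSP101 at 5.65, 5.69 and 10.1 against 66.9 and 83.5 CPM (3.40). Some cytosolic small heat shock proteins were higher at lower levels, such as HSP17.6A at 0.162, 0.0694 and 0.115 against 7.87 and 19 CPM (6.72) and HSP17.4 at 0.779 and 0.139 against 15 and 21.5 CPM (5.15). Grouped by annotation words, 10 of 25 HSP20-like chaperone genes were higher (40.0%) and 5 lower (20.0%), with a median of 0.62, or -1.01 with reference-gene scaling. Of the regulators, HSFA2 was at 0.942, 0.972 and 2.18 against 35.1 and 26.2 CPM (4.51, SE 0.54), HSFB2A at 3.8, 3.47 and 3.27 against 50.4 and 46.1 CPM (3.78, SE 0.32) and DREB2A at 16.8, 9.85 and 22.3 against 152 and 165 CPM (3.28). HSP18.2 (-1.31), plastid HSP21 (1.15) and HSP15.7 (0.76) did not pass. HSFA2 was lower in shm1 than in glyk1 (-2.35) and pglp1 (-2.33). Against glyk1, 1 of the 19 listed genes was higher in shm1 and 5 were lower, where 19% of all loci were higher and 18.8% lower. Against pglp1, 11 were higher and 2 lower, where 29.8% and 23.8% of all loci were.

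The perfect heat shock element GAANNTTCNNGAA, the array of inverted repeats that heat shock factors are known to bind, occurred in the same 1000-base windows before 6 of 20 listed genes (30.0%) and before 1.72% of all protein-coding genes. The list was chosen as heat shock genes, so its share cannot test the part of these factors here. The share of the element was 2.15% among loci called higher and 1.71% among those called lower. The stretches below come from genes of each class, small heat shock proteins first and regulators after them, with the match in capitals.
HSP17.4, chr3:16984934-16984986, minus strand: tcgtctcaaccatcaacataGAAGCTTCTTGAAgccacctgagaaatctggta
HSP17.6C, chr1:19980226-19980278, plus strand: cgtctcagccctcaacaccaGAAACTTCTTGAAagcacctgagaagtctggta
HSFA2, chr2:11135516-11135568, plus strand: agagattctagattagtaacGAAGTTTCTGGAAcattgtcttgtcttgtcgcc
HSFA7A, chr3:19264929-19264981, plus strand: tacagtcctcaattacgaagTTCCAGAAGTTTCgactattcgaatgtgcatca
DREB2A, chr5:1602021-1602073, plus strand: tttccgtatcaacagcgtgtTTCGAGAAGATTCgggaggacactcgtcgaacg
In HSFA7A and DREB2A the match lies on the opposite strand. HSP17.6C was at 0.13, 0 and 0 CPM in wild type and 4.09 and 5.51 CPM in shm1 (6.28, SE 0.96), with all its wild-type counts in replicate 1, and HSFA7A at 0.649 and 0.278 against 2.45 and 3.89 CPM (2.67, SE 0.44).

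Chaperones of the endoplasmic reticulum did not share this direction. Of 12 genes, 8 were lower and 2 higher (median -2.07), but only 2 of the 8 stayed called with each library left out, and without wild-type replicate 1 the counts were 3 lower and 2 higher with a median of -0.95. Without shm1 replicate 2, 2 were lower. HSP90.7, the ER form of HSP90, was lower also with any library left out (928, 267 and 242 against 52.2 and 20.3 CPM; -3.72, SE 0.7). BIP1 was at 635, 155 and 147 CPM in wild type and 82.3 and 63.3 CPM in shm1 and passed, but not without wild-type replicate 1 (-1.06) or shm1 replicate 2 (-1.92). BZIP60, the transcription factor activated by unfolded proteins, was higher at 304 and 266 against 52.1, 24.5 and 38.5 CPM (2.89, SE 0.42).

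Amino acid breakdown genes were higher. In the list of amino acid breakdown and dark-induced genes, 18 of 28 were higher and 2 lower, with a median of 1.84 and of 0.24 with reference-gene scaling. DIN11, a dark-induced gene, had 2 counts over wild-type replicates 1 and 2, its row in replicate 3 being displaced, and 1355 and 1771 CPM in shm1, for a ratio of 32792 with a 95% counting interval of 9078 to 270774. The proline dehydrogenases PRODH1 and PRODH2, which pass electrons from proline to the respiratory chain, were higher. PRODH1 was at 2.24 and 1.73 CPM in wild type and 796 and 778 CPM in shm1 (8.61, SE 0.47, adjusted p = 1.83e-08), and PRODH2 at 6.17, 0.486 and 2.01 against 394 and 442 CPM (7.11, SE 0.83). GDH2, a glutamate dehydrogenase subunit, was at 37.9, 18 and 19.7 against 892 and 1189 CPM (5.36, SE 0.37). Genes named for their induction in darkness were high in these illuminated leaves, with DIN10 higher by 5.35 on the log2 scale and SEN1 at 5.58, 9.58 and 2.35 against 361 and 421 CPM (6.07). The route was not higher throughout: the methylcrotonyl-CoA carboxylase subunit MCCB was lower (42.8, 36.4 and 33.1 against 11.7 and 3.57 CPM; -2.28).

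In nitrogen assimilation, 9 of 16 genes were higher and 2 lower (median 1.36, or 0.89 without wild-type replicate 2 and -0.20 with reference-gene scaling). The nitrate transporter NRT1.1 was at 20.3, 24.6 and 28.3 CPM in wild type and 714 and 1008 CPM in shm1. The wild-type spread is small beside that gap, and the log2 fold change of 5.14 (SE 0.24) had an adjusted p of 1.14e-08. It also exceeded glyk1 (117 CPM on average; 2.88) and pglp1 (91.4 CPM; 3.24). Nitrate reductase NIA2 was at 306, 78.5 and 71 against 2420.1 and 4311 CPM (4.47, SE 0.54), cytosolic glutamine synthetase GLN1;1 at 284, 119 and 191 against 1352 and 2299 CPM (3.21) and the ammonium transporter AMT1;1 at 167, 79.8 and 314 against 663 and 1157 CPM (2.28; 0.68 and not passing with reference-gene scaling). ASN2, an asparagine synthetase (-2.84), and NRT1.5, which loads nitrate into the xylem (-4.45), were lower. Nitrite reductase NIR1 did not pass (150.2, 163 and 159 against 140 and 136 CPM).

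Senescence regulators were higher within a single light period. In that list 17 of 20 were higher and 0 lower, with a median of 3.89 and of 2.39 with reference-gene scaling, and 13 stayed called with each library left out. WRKY6 was at 13.7, 6.38 and 11.1 CPM in wild type and 613 and 707 CPM in shm1 (5.98, SE 0.38), the NAC factor JUB1 at 3.31, 1.18 and 2.52 against 189 and 222 CPM (6.42) and ANAC055 at 0.195 and 0.0694 against 146 and 127 CPM (9.79). NYE1, which removes magnesium from chlorophyll a, was at 27.6, 11.5 and 13.6 against 222 and 237 CPM (3.70, SE 0.33). SAG12, the usual marker of late senescence, was too low for testing.

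Cell recycling systems were higher by smaller steps. Autophagy genes were higher for 15 of 21 and lower for 0 (median 1.24), and proteasome subunits for 26 of 30 and lower for 0 (median 1.24). With reference-gene scaling these medians were -0.37 and -0.34, with 7 autophagy genes higher and 5 lower and 2 proteasome genes higher and 11 lower. With total counts 15 proteasome genes were higher. Beyond 2-fold 9 and 11 genes passed. ATG8 genes, whose products coat the autophagosome, differed among themselves: ATG8H was at 5.1, 3.96 and 5.28 against 89.7 and 119 CPM (4.44, SE 0.32) and ATG8E at 16, 21.1 and 23.8 against 223 and 303 CPM (3.70), whereas ATG8F had overlapping groups (109, 91.4 and 69.3 against 96.3 and 76.2 CPM). RPT3, an ATPase of the regulatory particle, was at 153, 79.5 and 87.9 against 591 and 660.2 CPM (2.55), and the deubiquitinase RPN11 at 103, 52.8 and 47.3 against 333 and 364 CPM (2.37). Of peroxisomal beta-oxidation genes, 7 of 10 were higher and 0 lower (median 1.43, or -0.15 with reference-gene scaling), led by the acyl-CoA oxidase ACX1 at 148, 65.6 and 78 against 2236 and 2876 CPM (4.72, SE 0.42).

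Nuclear genes for the plastid ribosome, which makes the proteins encoded in the chloroplast, were lower almost without exception. Of 20 genes for plastid ribosomal proteins, 19 were lower, with a median of -4.09. PRPL21 was at 108, 355 and 235 CPM in wild type and 12.7 and 2.63 CPM in shm1 (-4.91, SE 0.63), PRPL4 had a log2 fold change of -4.30 (SE 0.58) and PRPL1, the least lowered of the 19, was at 191 and 498 against 83.9 and 63 CPM (-2.23, or -1.38 without wild-type replicate 2). In shm1 the lower value of both PRPL21 and PRPL1 was that of replicate 2. The 20th gene, PRPS1, is at 0 in wild-type replicate 3 (269.6, 518 and 0 against 39.6 and 14.6 CPM), and it passed without that library (-3.83, adjusted p = 7.37e-06). Cytosolic ribosomal proteins differed far less, with 3 of 17 lower, 0 higher and a median of -0.45. RPL3A, for one, was at 286, 319.9 and 231 CPM in wild type and 223 and 268 CPM in shm1. In HC, where only 4 of all 20372 loci passed, the plastid list had a median of -0.26 and 0 calls. The cytosolic list had a median of -0.84 and 0 calls.

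All 19 genes of Rubisco and the Calvin-Benson cycle were lower (median -2.64), and 14 passed when the spread was estimated from the 2 compared groups alone. PRK, phosphoribulokinase, was at 690.2, 1117 and 1735 CPM in wild type and 147 and 58.4 CPM in shm1 (-3.52, SE 0.43), and CFBP1, the plastid fructose bisphosphatase, at 325 and 821 against 58.7 and 27 CPM (-3.74). Among the Rubisco small subunits, RBCS1A was at 3687, 12057 and 15996 against 1974 and 1429.7 CPM (-2.64), and RBCS1B at 749.9, 1491 and 1646 against 110.2 and 19.7 CPM (-4.32, SE 0.68). RBCS2B also passed, but wild-type replicate 1, at 215 CPM, lay between the shm1 libraries at 227 and 111 CPM. RBCS3B was alike (547 CPM between 606 and 399 CPM) and did not pass without shm1 replicate 2 (-2.14). The 4 RBCS genes are close copies, so reads may be divided among them unevenly.

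Of 14 plastid gene regulators, 9 were lower and 3 higher (median -1.45). The sigma factors, which direct the plastid-encoded RNA polymerase to promoters, differed in direction. SIG2 was at 64.5, 119 and 115 CPM in wild type and 16.3 and 6.33 CPM in shm1 (-3.13, SE 0.38), and SIG6 had a log2 fold change of -3.17. SIG1 and SIG3 were lower too (-1.21 and -1.28). SIG5, the stress-responsive and light-responsive member, was the reverse, at 19, 8.47 and 11.6 against 169 and 329 CPM (4.25, SE 0.5, adjusted p = 3.55e-06).

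**Figure D3:**
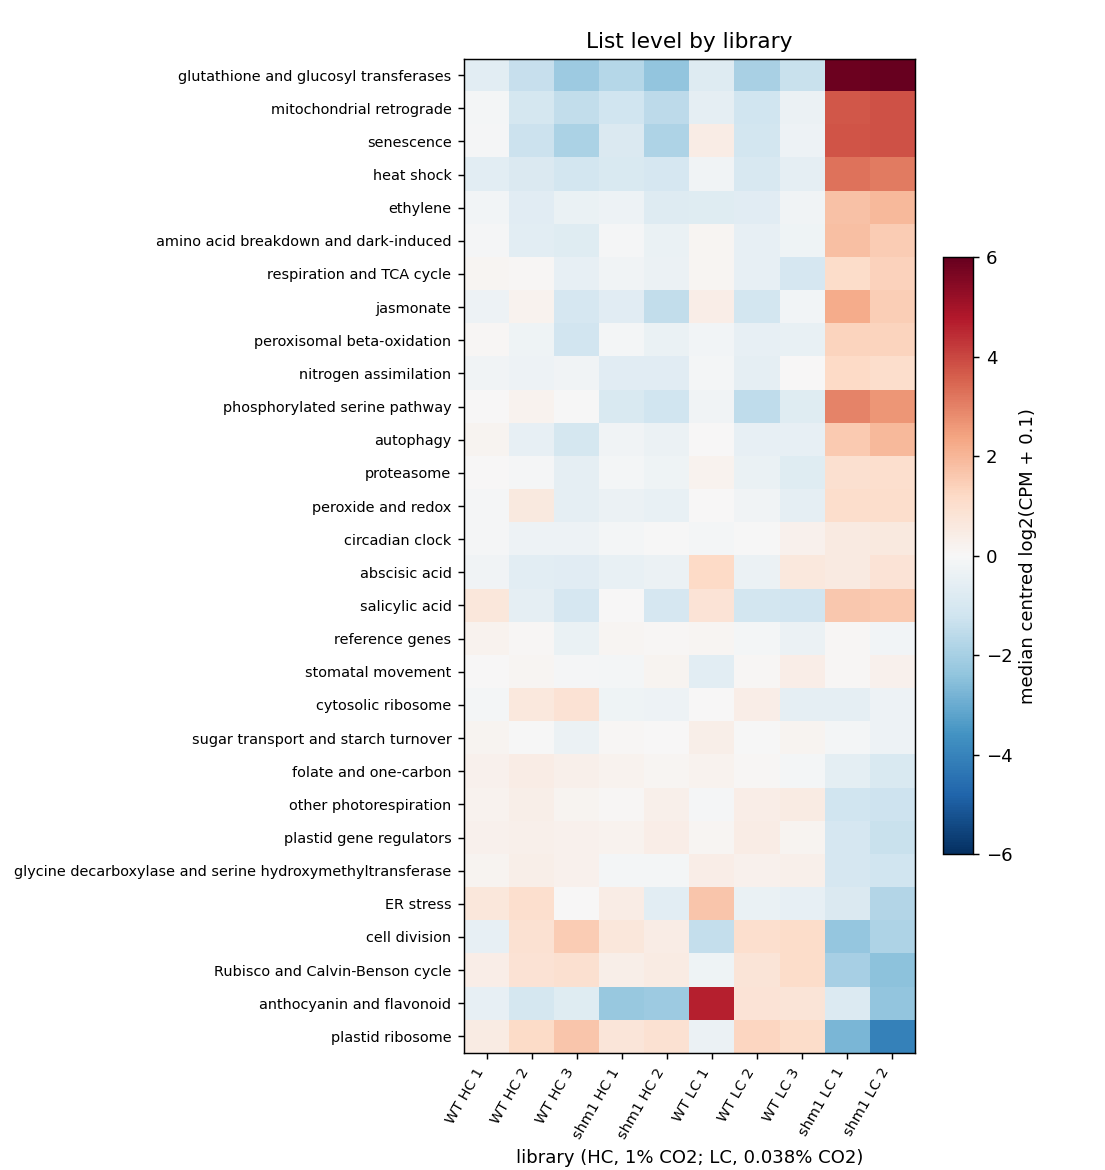
Level of each gene list in each library of wild type and shm1, as the median over members of log2(CPM + 0.1) after subtracting each member's mean over the 10 libraries (colour scale in log2 units; members in displaced rows left out). The 2 shm1 low-CO2 columns stand apart from the other 8 in the upper and the lowest rows; wild-type low-CO2 replicate 1 is high for anthocyanin genes (4.66) and ER stress (1.67).

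Jasmonate genes were higher for 15 of 26 and lower for 2 (median 1.72, or 0.18 with reference-gene scaling). The oxophytodienoate reductases OPR1 and OPR2, which are not the jasmonate-forming isoform and respond to reactive electrophiles, were among them. OPR1 was at 36.4, 32.1 and 40.4 CPM in wild type and 4002 and 7269.7 CPM in shm1 (7.28, SE 0.41), and OPR2 at 9.51, 5.2 and 5.28 against 351 and 485 CPM (5.96, SE 0.34), both with an adjusted p of 1.82e-08. JAZ1, a repressor that jasmonate induces, was at 40, 18.4 and 61.9 against 693 and 496 CPM (3.89), and JAZ8 at 0.325, 0.0694 and 0 against 31.3 and 24.2 CPM (7.40). The biosynthesis gene AOS was lower (786, 502 and 716 against 259 and 116 CPM; -1.83), or -1.37 and not passing without shm1 replicate 2. The storage proteins VSP1 and VSP2, classical jasmonate markers, had overlapping groups with VSP2 at 2707, 237 and 3104 against 643 and 8.02 CPM. Both were called lower without shm1 replicate 1 (-6.81 and -7.97), and VSP2 also without wild-type replicate 2 (-3.16).

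Ethylene genes were higher for 12 of 14 and lower for 1, with a median of 2.75 and of 1.14 with reference-gene scaling. ACS6, an ACC synthase, was at 3.38, 6.11 and 8.32 CPM in wild type and 408 and 494 CPM in shm1 (6.26, SE 0.51), and ACS2 at 0.779, 0.139 and 0.573 against 114 and 57.2 CPM (7.31). The scarce ACC oxidase gene ACO1 was lower (-2.82). ORA59, which joins ethylene and jasmonate responses, was at 0, 0.347 and 0.86 against 41.5 and 46.3 CPM (6.92, SE 1.13).

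Salicylic acid genes were higher for 9 of 18 and lower for 1, but their median was 0.33, was 2.49 without wild-type replicate 1, and was negative under 3 scalings (-1.19 with reference genes, -0.10 with total counts, -0.06 with upper quartiles). Receptor NPR3 was at 39.9, 23 and 36 CPM in wild type and 204 and 264 CPM in shm1 (2.83, SE 0.3), and the pipecolate pathway genes ALD1 (5.16, 0.486 and 0.918 against 146 and 174 CPM; 6.10) and FMO1 (2.66, 0 and 0.172 against 155 and 165 CPM; 7.19) were higher. The response marker PR1 was at 573, 2.57 and 18.1 against 139.7 and 55.1 CPM, and its groups overlapped (-1.02, or 3.23 without wild-type replicate 1, neither passing). WRKY54 is at 0 in wild-type replicate 3 (109, 62.3 and 0 against 25.9 and 30.8 CPM), and it was lower without that library (-1.51, adjusted p = 0.0334) but not with it (-1.01, adjusted p = 0.462).

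Abscisic acid genes moved both ways, with 10 of 22 higher and 10 lower (median 0.69, or -0.85 with reference-gene scaling). The median was 0.34 without wild-type replicate 2 and 0.34 without shm1 replicate 1. Dehydration and cold effector genes were lower, among them COR15A at 3499, 2644 and 3414 CPM in wild type and 178 and 28 CPM in shm1 (-4.95, SE 0.74), RD29A at 4413, 2184 and 3460.3 against 272 and 61.4 CPM (-4.33) and RD22 at 2603, 817 and 706 against 43.1 and 21.2 CPM (-5.42). Receptor genes were higher, with PYL5 at 0.877, 1.25 and 2.01 against 20.3 and 63.9 CPM (4.96, SE 0.47) and PYL6 at 0.0974, 0.416 and 0.172 against 10.9 and 70 CPM (7.62). The phosphatases that these receptors inhibit did not move together, since HAB1 was higher (3.05) and PP2CA lower (-1.93).

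Genes of stomatal movement showed 5 of 18 higher and 7 lower (median -0.41). The balance rests on single libraries, with 7 higher and 5 lower without wild-type replicate 3 (median 0.12) and 4 higher and 4 lower without shm1 replicate 2. The plasma membrane proton pump AHA2 was at 158, 133 and 122 CPM in wild type and 630.1 and 529 CPM in shm1 (2.07, SE 0.21), and the kinase OST1, which closes stomata, at 20.4, 12.1 and 11 against 57.8 and 75.1 CPM (2.19; 0.60 and not passing with reference-gene scaling). The blue-light receptors PHOT1 (-2.60) and PHOT2 (-2.18) and the outward potassium channel GORK (-1.57) were lower. The anion channel SLAC1 had overlapping groups.

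Clock genes included 11 of 19 higher and 2 lower (median 0.71, or -0.89 with reference-gene scaling), and only 5 of the 11 stayed called with each library left out; 6 were higher without shm1 replicate 2. The morning genes were among them. At 8 h into the light CCA1 was at 5.03, 7.91 and 3.73 CPM in wild type and 18.4 and 34.7 CPM in shm1 (2.26, SE 0.32; 0.60 and not passing with reference-gene scaling), LHY at 1.88, 2.85 and 1.09 against 9.44 and 19.3 CPM (2.90) and RVE8 at 1.43 and 1.73 against 21 and 33.1 CPM (4.11). The evening gene ELF3 did not pass (80.2, 69.7 and 109 against 83.9 and 75.3 CPM). In pglp1, CCA1 and LHY averaged 417 and 180 CPM, above shm1 (-3.98 and -3.65).

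Among 23 carbohydrate genes, 8 were higher and 8 lower (median -0.62, or 0.19 without wild-type replicate 1 and -0.12 without shm1 replicate 2). Sucrose-cleaving and hexose-importing genes were higher, with the cell wall invertase CWINV1 at 20.3 and 5.55 CPM in wild type and 646 and 851 CPM in shm1 (5.84, SE 0.68) and the hexose transporter STP13 at 300.2, 146 and 257 against 3399 and 4052 CPM (3.99, SE 0.37). Starch breakdown genes were lower, with the glucan water dikinase GWD1 at 1420, 1129 and 1098 against 150.3 and 37.2 CPM (-3.70, SE 0.51) and the phosphatase SEX4 at 331 and 170 against 27.8 and 9.31 CPM (-3.75). The trehalose phosphate synthase homologues TPS8 to TPS11 were higher and TPS5 was lower (109.6, 45.2 and 41.2 against 3.52 and 1.07 CPM; -4.81). TPS8 and TPS10 turn negative with reference-gene scaling (-0.14 and -0.12), and TPS11 no longer passes (1.16).

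Flavonoid genes were lower for 8 of 11 and higher for 2, and wild-type replicate 1 weighs on the size of the change. In HC, where only 4 of all 20372 loci passed, 0 of these did, at a median of -2.23. Of the interaction tests, 1 passed upward and 0 downward. LDOX, a late anthocyanin enzyme, was at 298, 9.92 and 3.61 CPM in wild type and 0.278 and 0.0561 CPM in shm1 (-9.05), with -5.17 left without that library, and the list median moved from -3.98 to -2.32. PAP2, a MYB activator of these genes, was the reverse at 0.812, 0.0694 and 0.115 against 68.2 and 51.3 CPM (7.24, SE 0.74), and it was also higher than in glyk1 (8.64) and pglp1 (7.40). Of 6 cell division genes 4 were lower and 1 higher, with CYCD3;1 at 0.714, 5.69 and 6.25 against 0.35 and 0.206 CPM (-3.84).

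**Figure D4:**
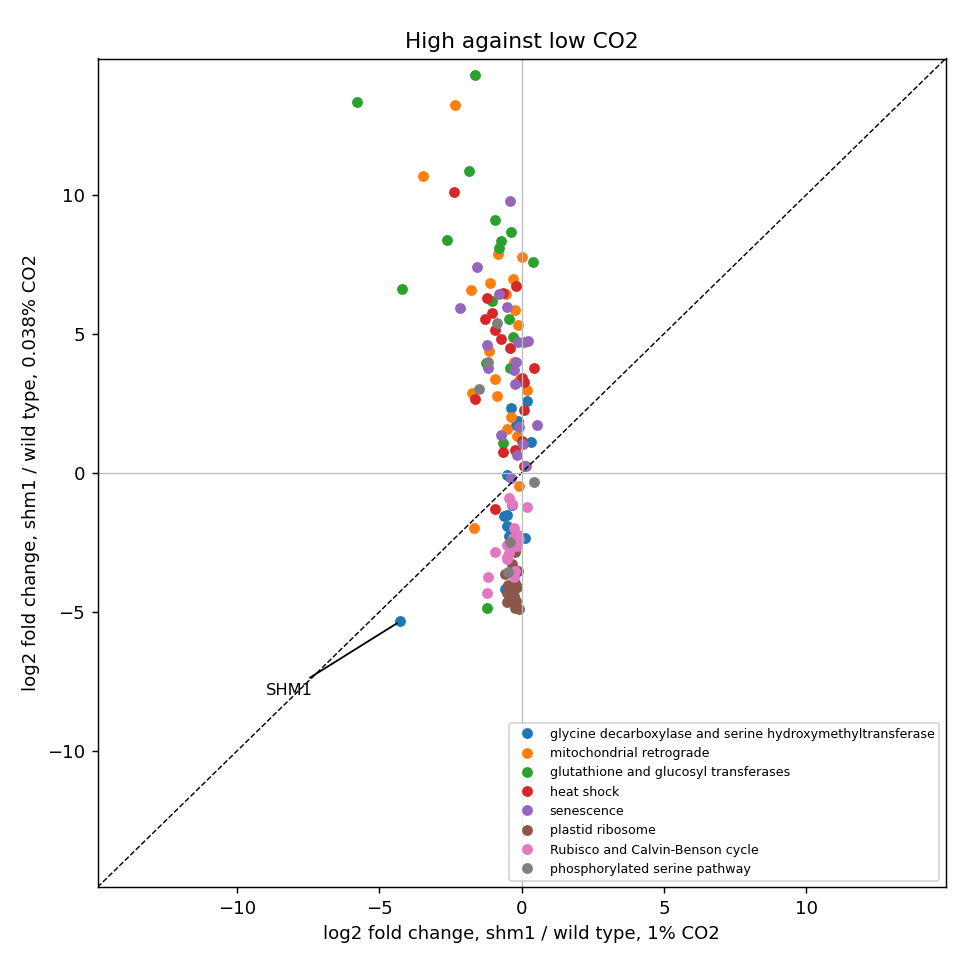
Log2 fold change of shm1 against wild type in 1% CO2 (horizontal) and in 0.038% CO2 (vertical) for the tested members of 8 gene lists (coloured points). Apart from SHM1 (marked), 0 of these members passed in 1% CO2, where only 4 of all 20372 loci did. Both axes use the same log2 scale, and the dashed line marks equal values.

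Outside the lists, the 15 largest increases and 15 largest decreases among loci with a symbol, at least 10 CPM and separate groups were examined. Several of the increases had 0 counts in every wild-type low-CO2 library, so only a lower bound can be given: at least 1092-fold for LCR67, a cysteine-rich peptide gene, 486-fold for the peptide gene RGF7, 399-fold for GLIP3, 367-fold for CYP715A1, 283-fold for PIPK11 and 205-fold for the thioredoxin gene ACHT3. Others had a few wild-type counts. SUC7, annotated as a sucrose-proton symporter, had 1 count over the wild-type group and 209 and 513 CPM in shm1. The ratio was 17480, with a 95% counting interval of 3137 to 690435. The multidrug transporter DTX1 was at 0.13, 0.139 and 0 against 441 and 937 CPM (12.79) and RHD2, the NADPH oxidase of root hairs, at 0, 0.139 and 0.115 against 245 and 351 CPM (12.08). CYP81D11 was at 0.0649 and 0.278 against 528 and 539.8 CPM (11.88, SE 0.67). RHD2 averaged 337 CPM in glyk1 and DTX1 1089 CPM in pglp1, which did not differ from shm1 past the threshold.

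Among the decreases, the expansin EXPA11 was at 12.9, 71.5 and 32.5 CPM in wild type and 0.472 and 0.0561 CPM in shm1 (-6.98, SE 0.89), XTH31, a cell wall xyloglucan enzyme, at 21.5 and 47.9 against 0.05 and 0 CPM (-9.80, SE 1.1) and the cyclin CYCD1;1 at 1.43, 20.7 and 14.1 against 0.178 and 0.149 CPM (-6.14). The gibberellin-regulated gene GASA6 was at 3.05, 154 and 47.5 against 0.65 and 0.187 CPM (-7.22). The lipid transfer protein LP1 was at 1012, 471 and 322 against 15.6 and 1.51 CPM (-6.13). LTP3, LTP4 and DR4 were highest by far in wild-type replicate 1, with LTP3 at 1144, 30.4 and 2.64 against 2.38 and 0.448 CPM. None of the 3 passed without that library (-3.48, -1.89 and -3.81), nor without either shm1 replicate (-7.03 to -9.84).

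Compared directly with the other mutants in low CO2, shm1 differed from glyk1 at 7697 loci (37.8%; 19% higher and 18.8% lower; 4583 loci without shm1 replicate 2) and from pglp1 at 10920 loci (53.6%; 29.8% higher and 23.8% lower). Of the 6691 loci higher in shm1 than in wild type, 1884 also exceeded both of these mutants. Of the 6750 loci lower than in wild type, 1674 were below both. These comparisons all rest on the same shm1 libraries, so the counts are not independent of one another. Plastid ribosomal proteins were lower than in glyk1 for 19 of 20 (median -2.88) and lower than in pglp1 for 19 of 20 (median -3.96). Calvin-Benson genes were lower for 15 and 16 of 19. The mitochondrial retrograde list had 3 members higher and 3 lower against glyk1 and 1 higher and 10 lower against pglp1. Amino acid breakdown genes were higher for 6 and lower for 2 of 28 against glyk1, and higher for 19 and lower for 0 against pglp1. Proteasome subunits were higher for 4 and 25 of 30 and lower for 0 in both.

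**Figure D5:**
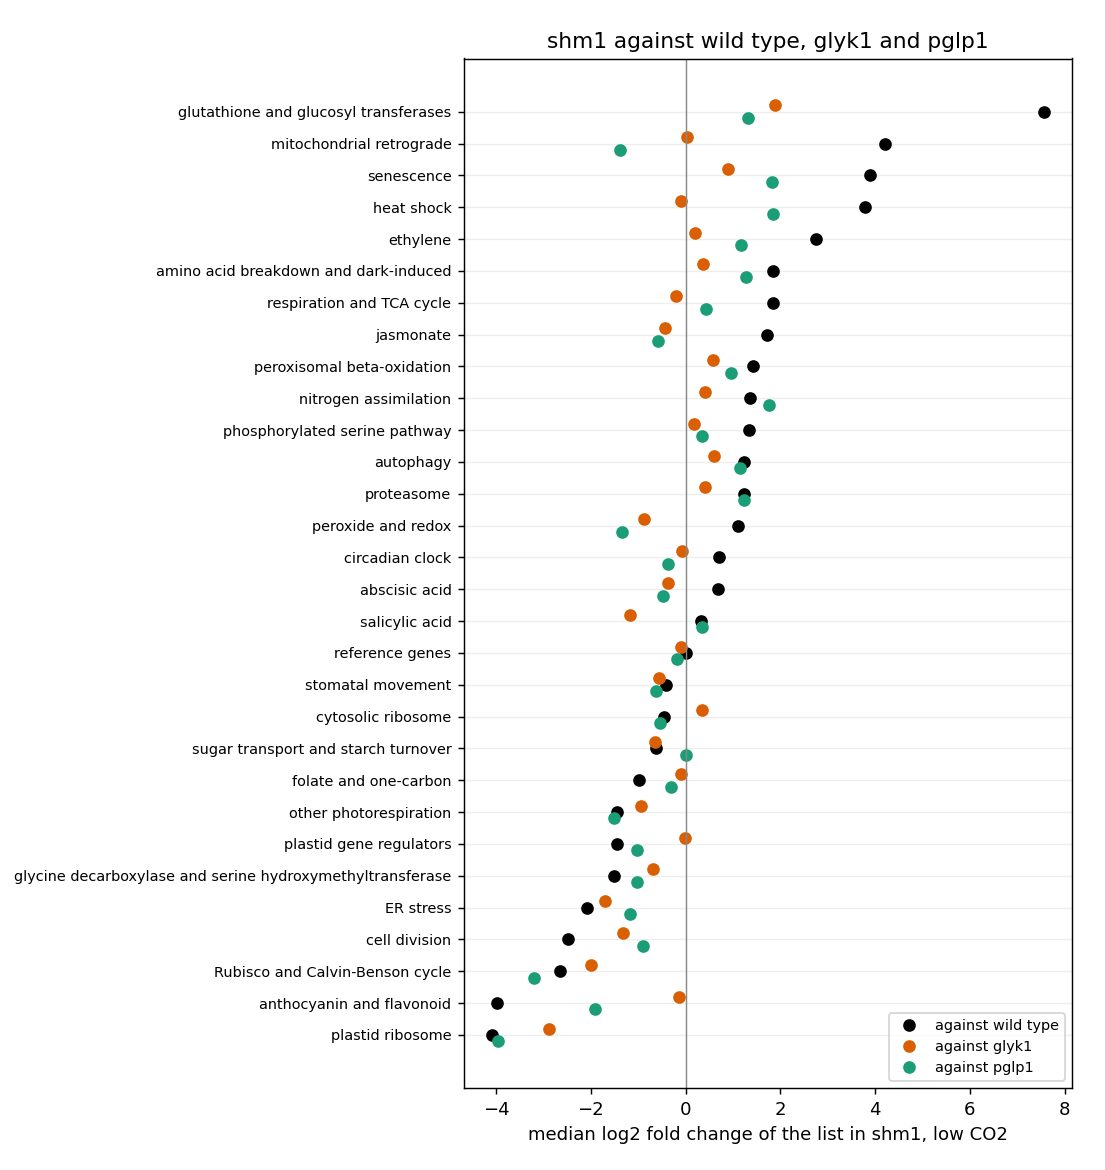
Median log2 fold change of each gene list in shm1 against wild type (black), glyk1 (orange) and pglp1 (green), all in low CO2; vertical lines mark 0. The plastid ribosome list is below 0 in all 3 comparisons (-4.09, -2.88 and -3.96), whereas the medians of the mitochondrial retrograde list are 4.20, 0.03 and -1.38.

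The genes that differed most in the same direction from wild type, glyk1 and pglp1 included SHM1, NAP12, GLIP3, RGF7 and PAP2, given above. NIT4, a nitrilase of beta-cyanoalanine, was at 2.18, 3.12 and 5.68 CPM in wild type and 1936 and 3840.2 CPM in shm1 (9.63, SE 1.04), against means of 42.5 CPM in glyk1 (6.09) and 49 CPM in pglp1 (5.88). The cytochrome P450 gene CYP89A6 had 3 counts over the wild-type group and 246 and 476 CPM in shm1, a ratio of 6234 (95% counting interval 2133 to 30228). DRS1, at 0.812, 1.6 and 1.78 against 11.5 and 20.9 CPM (3.56, SE 0.57), was also 5.20 above glyk1 and 5.53 above pglp1 on the log2 scale. With a symbol and at least 10 CPM, 741 loci were higher and 602 lower than in all 3, all measured from the same shm1 libraries. Opposite calls in HC and LC numbered 0, but only 4 loci passed in HC at all, so that count could hardly differ from 0.

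Bulk leaves cannot tell fewer cells of a type from less RNA per cell. Of the marker lists, 3 of 5 epidermal genes were lower and 0 higher (summed 158, 227 and 211 CPM in wild type and 57.8 and 52.6 CPM in shm1), and 3 of 5 phloem genes were higher and 0 lower (232, 233 and 392 against 450 and 494 CPM; 0 higher and 4 lower with reference-gene scaling, and 1 stayed called with each library left out). Guard cell genes had 2 of 5 higher and 1 lower (44.9, 83.1 and 95.6 against 70.2 and 83.9 CPM), and none of 3 xylem genes passed (2.21, 9.58 and 58.3 against 10.6 and 8.11 CPM). Root markers summed to 0 in all wild-type libraries and to at most 0.0334 CPM in shm1, with 2 at 0 in all 5 libraries, and floral markers to at most 1.27 CPM. The leaf transcript RBCS1A, at 1429.7 to 15996 CPM, was abundant in all 5. The part of cell makeup in the results above was not tested.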

How the data were processed

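Polyadenylated RNA of mature Arabidopsis leaves was sequenced single-end or paired-end per the labels' protocols, which do not say which library was which, so sequencing mode and group could not be separated. The authors deposited raw read counts per locus, RPKM, and for each comparison a log2 fold change and a q-value; the submitters' processing notes name CASAVA 1.8, edgeR, TAIR9 and TAIR10, with no roles given. Rows of wild-type replicate 3 in low CO2 that are displaced were treated as missing.

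From the deposited counts, loci were tested with edgeR 4.0.16 in R 4.3.3 (TMM factors, filterByExpr, robust quasi-likelihood F test, Benjamini-Hochberg adjustment over all 20372 loci, threshold 0.05) across all 22 libraries, with 16754 loci in 22 and 3618 displaced loci in 21 libraries. SE is the log2 fold change divided by the square root of F. Intervals and floors (3 counts, 95%) cover counting error only. In the heat map 0.1 CPM was added. Promoters were read from RefSeq's TAIR10.1. Alternatives were DESeq2 1.42.0, other scalings and filters, a fit of only the 2 groups compared, thinning to 11984595 counts, and libraries left out in turn.

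The comparison, its members and the gene lists were chosen with earlier results of these data known. Genes were named if they were list members, if they were among the 15 largest called changes in each direction outside the lists (a symbol, at least 10 CPM, separate groups), if they were among the 10 loci differing most in the same direction from wild type, glyk1 and pglp1, or if opposite calls were made in the 2 CO2 levels. AT1G51580 and AT5G44490 were chosen after their values were seen.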

Additional observations from a re-analysis of the deposited data

Results flagged for a closer look

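The shm1 contrast differed between low and high CO2 at 10877 loci by edgeR's interaction test. Among the genes of serine synthesis, PSAT1 had an interaction of 6.26 on the log2 scale and SHM2 one of -2.45. For AOX1D, an alternative oxidase with few counts outside the shm1 low-CO2 libraries, the fitted interaction was 14.16, a value that depends on the prior count.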

How the results depend on the processing

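SHM1 stayed lower and past the threshold under all 17 alternatives (-6.93 to -4.92). With reference-gene scaling 2167 loci were higher and 13608 lower, and GLDP2 (-0.47), GGT1 (-0.29), SAM1 (-0.10), ANAC017 (-0.25), SAPX (-0.14), TPS8 (-0.14) and TPS10 (-0.12) turned negative. UBQ10, a reference gene, was higher in shm1 under the main scaling (2.17) but did not pass with reference-gene scaling (0.58). With the rows as deposited AOX1B was at -1.94. With the spread estimated from only the 2 groups compared, 9830 loci passed in low CO2 (5009 higher, 4821 lower). Then 11 other photorespiratory and 4 ER stress genes were lower, and 16 proteasome and 5 clock genes higher. The call was lost for 15 named genes: GLDP1, GGT1, GLYK, PGLP1, TAPX, SSADH, SAPX, AOX1C, NDC1, BIP1, RBCS2B, RBCS3B, GSTF8, LTP3 and LTP4. Beyond a 2-fold change, 8231 loci passed against wild type (3894 higher, 4337 lower), 6584 for the interaction (3203 and 3381), 2418 against glyk1 (1097 and 1321), 5872 against pglp1 (3100 and 2772) and 2 in high CO2 (1 lower). In high CO2, counts were 158 with DESeq2's test (68 higher, 90 lower), 7 with DESeq2 size factors (4 higher) and 7 without a filter (3 higher). The causes were not tested. With a shm1 low-CO2 library left out, 4583 to 6988 loci passed against glyk1 (2321 to 3240 higher, 2262 to 3748 lower), and in high CO2 2 were higher. Over named genes, 3340 of the alternative values kept direction and call, 77 lost the call, 28 gained one and 8 changed sign.

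Replicate numbers were not taken to pair the samples, since no label ties them to a batch and the difference between replicates 1 and 2 correlated across loci at -0.03 between wild type and shm1 in low CO2 but at 0.33 in high CO2, and at 0.34 between the wild types of both CO2 levels. With the number as a replicate block, 13368 loci passed in low CO2, and 1 in high CO2 (0 higher, 1 lower), which is SHM1.

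Wild-type depth was the lower, and thinning to it left 12750 calls.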

Other observations

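Loci were also grouped by words in their annotation, a grouping made after the data were seen, and the shares over all loci were 32.8% higher and 33.1% lower. Some transcription factor families had more higher than lower members in shm1 in low CO2: 34 of 55 NAC domain genes were higher and 2 lower (median log2 fold change 2.26, or 0.68 with reference-gene scaling), and 30 of 54 WRKY genes were higher and 2 lower (1.71, or 0.17). Of 75 AP2/ERF genes, 35 were higher and 14 lower (1.0, or -0.54). Of 234 U-box or RING ubiquitin ligase genes, 120 were higher and 43 lower (median 0.83, or -0.75 with reference-gene scaling). Genes for calmodulin-like proteins, which bind calcium, were higher for 49 of 89 and lower for 14 (1.1, or -0.50).

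Other groups had more lower than higher members. Of 276 loci annotated to the thylakoid, 203 were lower and 23 higher (median -2.18). Pentatricopeptide repeat genes, whose products process organellar RNA, were lower for 290 of 495 and higher for 73 (-1.18). Expansins, which loosen cell walls, were lower for 15 of 21 and higher for 1 (-2.89), auxin-responsive SAUR genes for 26 of 57 and higher for 9 (-1.75), and aquaporins for 12 of 24 and higher for 2 (-1.42). Counts were closer for 762 loci annotated to the mitochondrion (254 higher, 247 lower), 108 to the peroxisome (43 and 32) and 20 xyloglucan endotransglucosylases (7 and 8). In 1% CO2, 0 members of each of these groups passed, where only 4 of all 20372 loci did (0.0196%).

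In the authors' deposited table, 539 loci have a q-value under 0.05 for shm1 against wild type in low CO2, 531 higher, 7 lower and 1 with a log2 fold change of 0. Of these, 537 passed in the same direction here (531 higher and 6 lower), from the same libraries and with 66% of all loci passing. The calls here, 6691 higher and 6750 lower, are far more numerous and include far more lower loci. The reason was not tested.

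The evening element, AAAATATCT, was found on either strand in the 1000 bases before 7 of 19 clock genes (36.8%) and before 7.24% of all protein-coding genes, with 7.12% among loci called higher and 7.88% among those called lower. Other motifs searched were frequent before the clock genes too. The G-box CACGTG occurred before 36.8% of them (14.8% of all protein-coding genes) and the unfolded protein response core TGACGTGG before 31.6% (2.83%). The mitochondrial dysfunction motif occurred before 15.8% (7.6%) and the heat shock element before 5.26% (1.72%).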
